A study of Mus musculus with 8 samples.

Results

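The genes described here are the steroid receptors and the steroid-converting enzymes through which the hippocampus reads and adjusts corticosterone. There were 9 such genes among the 50686 genes of the count table, and they were chosen by name for their function, with no threshold on their values. They are 5 receptor genes, *Nr3c1* (glucocorticoid receptor, GR), *Nr3c2* (mineralocorticoid receptor, MR), *Esr1* (estrogen receptor α), *Esr2* (its β form) and *Pgr* (progesterone receptor), and 4 enzyme genes, *Hsd11b1*, *H6pd*, *Srd5a1* and *Cyp7b1*. All 9 were found by their Ensembl identifiers in the table. Their transcripts were counted by RNA-seq of ventral hippocampus from male mice (C57B6/J in the labels) of 8 weeks. No adrenalectomy is described for either group. A single injection of 3 mg/kg corticosterone was given to 4 mice, with their libraries numbered 5 to 8, and vehicle to 4 mice, with libraries 1 to 4. All mice were killed 3 h later, and each library came from 1 mouse.

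Steroid receptors are transcription factors that are activated by binding a hormone. Corticosterone is a ligand of both GR and MR, which sit on the same kind of DNA element, and hippocampal neurons are known for holding both. Enzymes in the target cell set how much hormone reaches the receptors. *Hsd11b1* codes for 11β-hydroxysteroid dehydrogenase type 1, which regenerates active corticosterone from inert 11-dehydrocorticosterone, and *H6pd* for hexose-6-phosphate dehydrogenase, which makes the NADPH that this reaction uses inside the endoplasmic reticulum. *Srd5a1* codes for 5α-reductase type 1, which reduces corticosterone and progesterone toward neuroactive steroids. *Cyp7b1* codes for a 7α-hydroxylase of oxysterols and of the neurosteroid dehydroepiandrosterone.

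The libraries held between 17492159 and 19931987 reads on genes. The treatment could be seen in *Fkbp5*, a GR target gene, which had 1709 to 2373 normalized counts after vehicle and 3178 to 3511 after corticosterone. Normalized counts are read counts scaled with the TMM method to a library of 19176039 reads. Corticosterone and vehicle libraries were compared over 16018 genes by quasi-likelihood (edgeR), with p values adjusted by Benjamini-Hochberg and a threshold of 0.05. *Fkbp5* was the only gene past it (adjusted p = 0.0481), which is 0.00624% of the genes tested, and it missed the threshold under 7 alternative settings, with each change in the same direction. This count rested on single libraries, and without corticosterone 5 it was 1651, or 10.2% of 16181 genes tested.

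The tissue label was checked against marker genes. All 8 markers of hippocampal neurons, among them *Prox1* of dentate granule cells and *Wfs1* of CA1 pyramidal cells, were expressed, with a summed level of 673 to 811 CPM (reads scaled to a common library size) after vehicle and 698 to 769 after corticosterone. The 4 markers of striatum summed to 17.8 to 21.8 CPM after vehicle and 21.9 to 22.2 after corticosterone, and the 8 of choroid plexus to 21.9 to 69.2 and 32.7 to 72.8. The 4 markers of thalamus summed to 34.1 to 87.0 CPM after vehicle and 32.8 to 100.4 after corticosterone, with 3 of 4 fitted higher. None of these marker genes was at 0 over all libraries. In bulk tissue, fewer cells of a type and less RNA per cell cannot be told apart.

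The levels of the genes were compared per length, as reads per kilobase of annotated exons, scaled by library size (RPKM). *Nr3c2* was the highest of the 9 genes, with 31.1 ± 3.70 RPKM after vehicle (SD, n = 4 mice), above 89.8% of all genes tested. *Nr3c1* followed with 10.1 ± 1.85 RPKM and *Cyp7b1* with 9.41 ± 1.43, and the ranges of these neighbours overlapped. Next came *Hsd11b1* with 7.13 ± 0.887 RPKM and *Srd5a1* with 4.04 ± 0.835. *Pgr* and *H6pd* had 1.75 ± 0.244 and 1.62 ± 0.0225 RPKM, with ranges that overlapped after vehicle. *Esr1* had 0.195 ± 0.0248 RPKM, above 2.69% of the genes tested, and *Esr2* had 0.0304 ± 0.0278. All other neighbours in this order had ranges that did not overlap, in either group. The order of *Hsd11b1* depended on the gene model, since its annotated exons are 4251 bases in all but its longest transcript is 1978. Per longest transcript, its level was 15.3 ± 1.91 RPKM and that of *Nr3c1* 12.1 ± 2.21. *Esr1* likewise rose to 0.420 ± 0.0534 RPKM and stayed next to last.

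**Figure D1:**
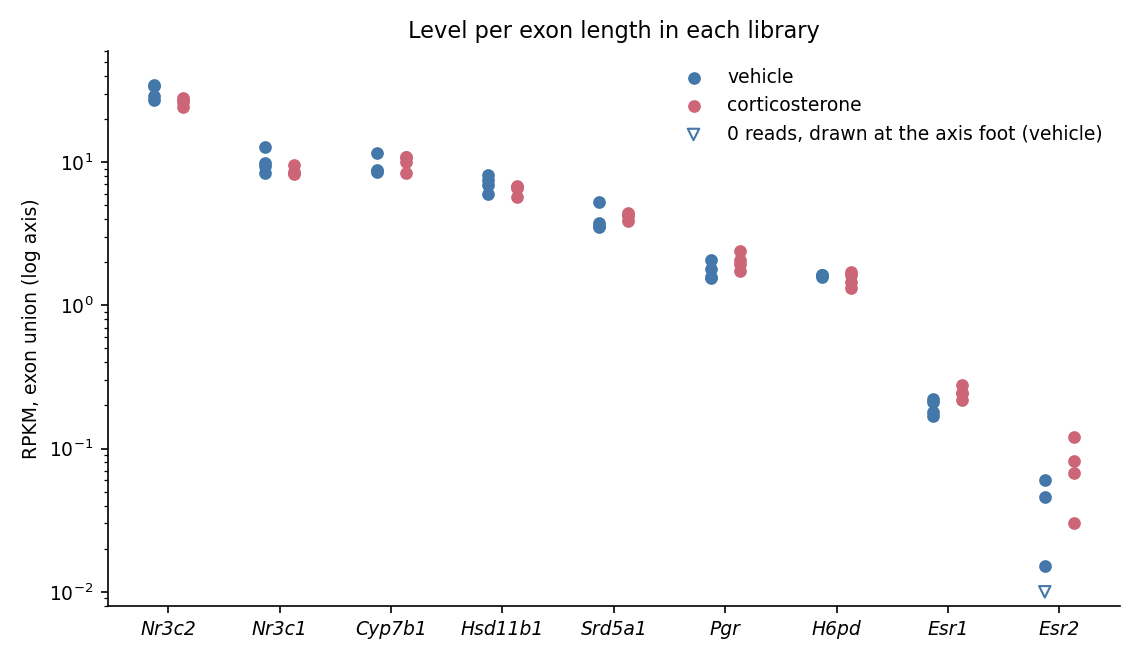
Level of each gene in RPKM (exon union, log axis) in each library, with vehicle in blue and corticosterone in red, in the order of the vehicle means. *Nr3c2* lies at 27.0 to 34.6 RPKM after vehicle, and the estrogen receptor genes lie below 0.3 RPKM; the open triangle is vehicle 1, which had 0 reads of *Esr2*.

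Corticosterone changed none of these genes past the threshold. Of the 9 genes, 8 had enough reads to be tested, and 0 of the 8 passed, with adjusted p values of 0.512 to 0.889 in edgeR. At an unadjusted p value under 0.05 there was 1, *Nr3c2*, or 12.5% of the 8, where 9.03% of all genes tested were below it. DESeq2 and limma-voom also passed 0 of these genes, where DESeq2 passed 0.374% of all genes and limma-voom 1 gene in all. Both had 1, *Nr3c2*, at an unadjusted p value under 0.05, against 5.39% and 9.21% of all genes. With no filter on low counts *Nr3c1* joined it, making 2, against 8.90% of all genes. Without corticosterone 5 there were 2, *Nr3c2* and *Pgr*, against 29.0% of all genes. Without vehicle 4 there were 3, *Nr3c2*, *Pgr* and *Hsd11b1*, against 15.3% of all genes, and without vehicle 1 only *Nr3c1*, against 7.33%. *Esr1* alone was under 0.05 without vehicle 3, and *Esr1* and *Nr3c2* were without corticosterone 7. *Nr3c1* and *Nr3c2* were under it without corticosterone 8, and *Nr3c2* alone was without vehicle 2 or without corticosterone 6. The share over all genes is not given for these settings. Which genes were below 0.05 thus depended on the library left out. Of the 8 genes, 4 were fitted higher and 4 lower. Their median fold change on the log2 scale was -0.012, and that over all genes tested was 0.0036. In 0 of the 8 were the values of the groups apart, where 3.66% of all genes tested had groups that did not overlap.

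**Figure D2:**
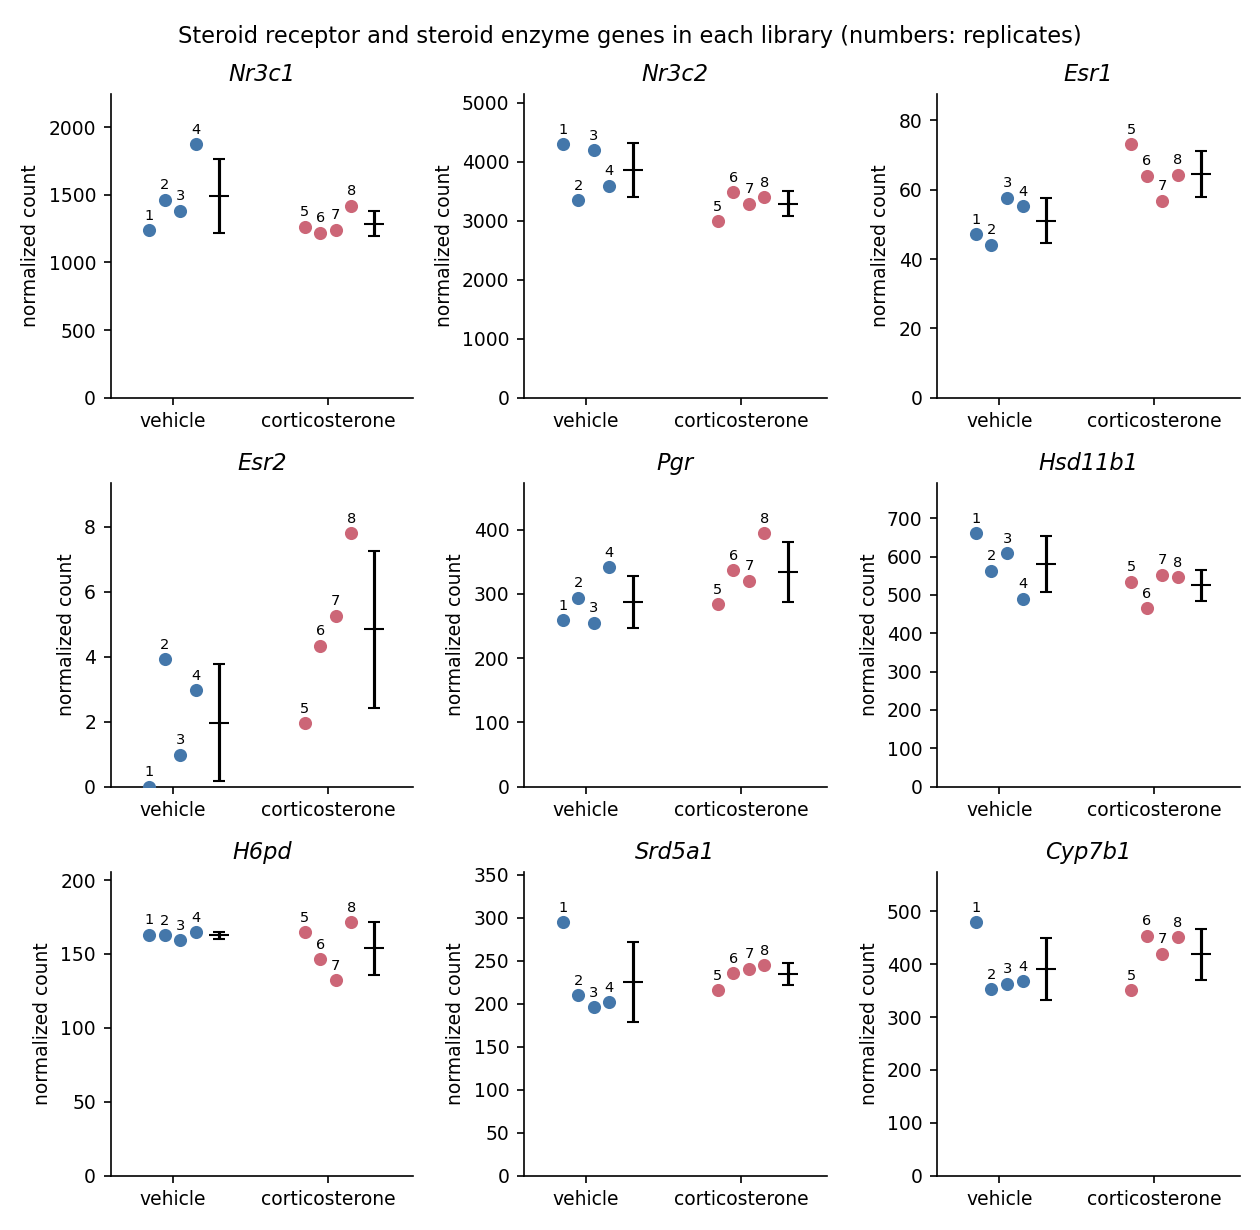
Normalized counts of the 9 genes in each library, with the library number above each point, vehicle in blue and corticosterone in red, and the mean ± SD in black beside each group. The groups overlap in every panel; the scale of each panel starts at 0.

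*Nr3c2* (ENSMUSG00000031618) lies on chromosome 8 of GRCm38 from 76899442 to 77245012. Its normalized counts were 4295, 3349, 4196 and 3593 in vehicle 1 to 4, and 2991, 3476, 3286 and 3401 in corticosterone 5 to 8. All 4 corticosterone values lay below the vehicle mean, and 2 lay below every vehicle library, but vehicle 2 fell within the corticosterone range. The mean went from 3858 ± 459.6 (SD, n = 4) to 3289 ± 213 (SD, n = 4), a log2 fold change of -0.23 ± 0.088 (SE), with an adjusted p = 0.512 in edgeR. The 95% interval of the difference ran from -0.42 to -0.04 before any adjustment. The exact permutation test gave p = 0.0857 (two-sided), and could not have gone below 0.0286 with groups of 4. Among all genes tested, 21.5% had a larger fitted change in either direction. Without each library in turn, the log2 fold change stayed between -0.29 and -0.18, but without vehicle 1 or without vehicle 3 the unadjusted p value in edgeR was no longer under 0.05 (0.0786 and 0.0679). The exons of *Nr3c2* share 247 bases, 3.82% of their length, with *Gm10649* on the opposite strand, which had 55 to 78 reads per library.

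*Nr3c1* (ENSMUSG00000024431, chromosome 18 from 39410545 to 39519421) had 1239, 1464, 1382 and 1874 normalized counts in the vehicle libraries. In the corticosterone libraries it had 1264, 1221, 1242 and 1419. Vehicle 4 was the highest of the 8 libraries, while vehicle 1 lay below 3 of the 4 corticosterone libraries. The mean went from 1489.7 ± 273 to 1287 ± 89.9, a log2 fold change of -0.21 ± 0.11 (SE), with an adjusted p = 0.546 in edgeR. Its interval, from -0.45 to 0.03, includes no change and a fall to 0.731 of the vehicle level. The estimate rested in part on vehicle 4, and without that library it was -0.09. The exact permutation p was 0.229 (two-sided, n = 4 and 4).

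Both corticosteroid receptor genes thus had a lower fitted mean after corticosterone, and their ratio differed little between the groups. Per exon length, *Nr3c2* exceeded *Nr3c1* in all 8 libraries, by 4.12, 2.72, 3.60 and 2.28 times in the vehicle libraries and by 2.81, 3.38, 3.14 and 2.84 times in the corticosterone libraries. The means were 3.18 ± 0.834 (SD, n = 4) and 3.04 ± 0.269 (SD, n = 4). The corticosterone ratios all lay within the vehicle range. Vehicle 1 and vehicle 4 were at the ends of that range, the former with the most *Nr3c2* and the least *Nr3c1* of its group, the latter with the most *Nr3c1*. With the longest transcript as the length, the mean ratios were 2.91 and 2.79.

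**Figure D3:**
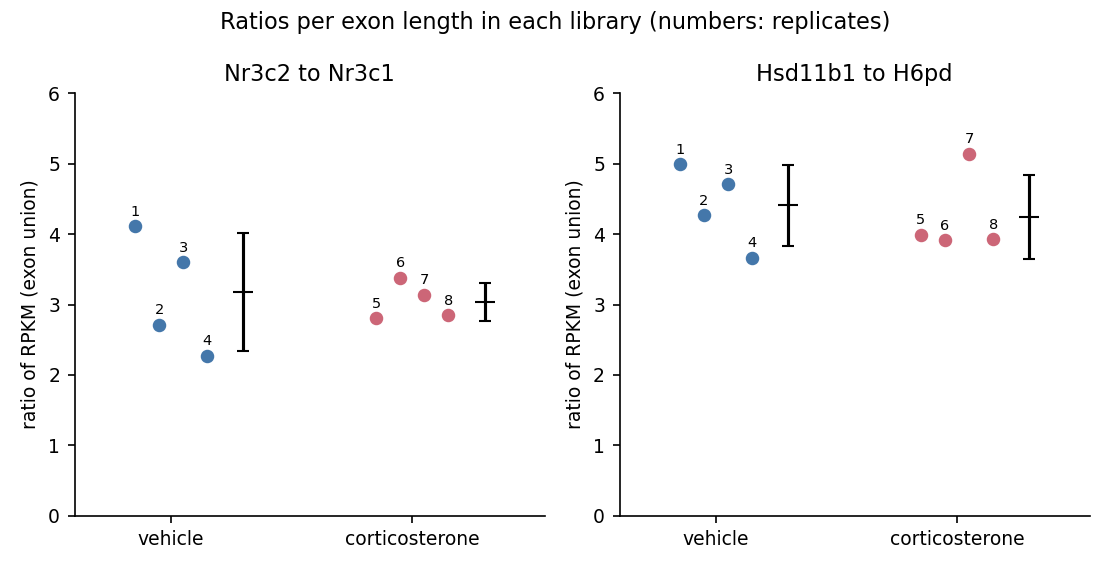
Ratio of the RPKM values of *Nr3c2* to *Nr3c1* and of *Hsd11b1* to *H6pd* in each library, numbered as in the text, with the mean ± SD in black, vehicle in blue and corticosterone in red. The corticosterone libraries lie between 2.81 and 3.38 for the receptors, inside the vehicle range of 2.28 to 4.12.

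The genes whose log2 CPM followed *Nr3c1* most closely over the 8 libraries were *Gm49342*, *Rab38* and *Dnmt3a*, with a Pearson correlation of 0.96, 0.95 and 0.93. Those closest to *Nr3c2* were *Abcb4*, *Smoc2* and *Arpc4*, with 0.98, 0.95 and 0.93. They are the highest of 16018 genes over 8 libraries that share a treatment contrast and a depth, and only describe these libraries. Of all genes, 8 lay above 0.9 for *Nr3c1* and 10 for *Nr3c2*, and the 3 closest genes of the receptors were different ones.

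The sex steroid receptor genes were low. *Pgr* (ENSMUSG00000031870, chromosome 9 from 8899833 to 8968611) had 259, 294, 255 and 342 normalized counts in the vehicle libraries and 284, 337, 321 and 395 in the corticosterone libraries. Corticosterone 8 was the highest of the 8, and vehicle 4 was above the other 3 corticosterone libraries. The mean went from 288 ± 40.0 (SD, n = 4) to 334 ± 46.2 (SD, n = 4), a log2 fold change of 0.22 ± 0.13 (SE), with an adjusted p = 0.571 in edgeR. The interval ran from -0.06 to 0.49, and the estimate was 0.12 without corticosterone 8 and 0.30 without vehicle 4.

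*Esr1* (ENSMUSG00000019768, chromosome 10 from 4611593 to 5005614) had the largest fitted change of the 8 genes, on 45 to 75 reads per library. Its normalized counts were 47.2, 44.1, 57.7 and 55.3 after vehicle and 73.1, 64.0, 56.8 and 64.3 after corticosterone. Only corticosterone 7 lay within the vehicle range, and the other 3 corticosterone libraries were above it. The mean went from 51.1 ± 6.49 to 64.6 ± 6.69, a log2 fold change of 0.34 ± 0.17 (SE), with an adjusted p = 0.545 in edgeR. Its interval, from -0.02 to 0.70, is the widest of the 8 genes. Without vehicle 3 or without corticosterone 7 the estimate was 0.40, with unadjusted p values in edgeR of 0.0487 and 0.0468. It was lowest without corticosterone 5, at 0.27, with an unadjusted p value in edgeR of 0.161. At this depth, counting error alone gives a coefficient of variation of 13.9% in the vehicle group, and the libraries varied by 12.7%. The exact permutation p was 0.0571 (two-sided, n = 4 and 4).

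*Esr2* (ENSMUSG00000021055, chromosome 12 from 76120419 to 76177259) had 0 to 4 reads per vehicle library and 2 to 8 per corticosterone library, and was too low to be tested. The vehicle group held 8 reads in all (95% Poisson interval 3.45 to 15.8) and the corticosterone group 19 (11.4 to 29.7), which covers counting error only. Its 0 reads in vehicle 1 allow up to 3. The exact permutation p was 0.143 (two-sided, n = 4 and 4), and a difference was not detected at this depth. DESeq2 on all genes gave a log2 fold change of 1.30 with an unadjusted p value of 0.163 and no adjusted one.

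With *Nr3c2* and *Nr3c1* fitted lower and *Pgr* and *Esr1* fitted higher, the makeup of the receptor transcripts can be given as a description. Of the summed RPKM of the 5 receptor genes, *Nr3c2* made up 71.9% ± 5.29 (SD, n = 4) after vehicle and 70.5% ± 1.66 (SD, n = 4) after corticosterone, and *Nr3c1* 23.5% ± 4.56 and 23.3% ± 1.49. *Pgr* made up 3.46% to 4.74% after vehicle and 4.99% to 6.05% after corticosterone, and *Esr1* 0.402% to 0.490% and 0.583% to 0.804%. For *Pgr* and *Esr1* these shares did not overlap between the groups, although their normalized counts did. The shares depend on the gene model, and with the longest transcripts that of *Esr1* was 0.772% to 0.938% and 1.11% to 1.53%, and that of *Pgr* 3.82% to 5.18% and 5.45% to 6.62%. Each share also moves with *Nr3c2*, the largest part of the sum, and was not tested.

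Among the enzymes, *Hsd11b1* (ENSMUSG00000016194, chromosome 1 from 193221634 to 193264075) had 661, 563, 609.5 and 491 normalized counts in the vehicle libraries. In the corticosterone libraries it had 534, 465, 553 and 547. All 4 corticosterone values were below the vehicle mean, but 3 of them were above vehicle 4. The mean went from 581 ± 72.3 (SD, n = 4) to 525 ± 40.3 (SD, n = 4), a log2 fold change of -0.15 ± 0.10 (SE), with an adjusted p = 0.609 in edgeR. The interval ran from -0.37 to 0.07, or from 0.775 to 1.05 times the vehicle level. The estimate was -0.22 without vehicle 4, -0.08 without vehicle 1 and -0.09 without corticosterone 6.

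*H6pd* (ENSMUSG00000028980, chromosome 4 from 149979475 to 150009023) was the steadiest of the genes after vehicle, with 163, 163, 159 and 165 normalized counts. After corticosterone the counts were 165, 146, 132 and 172, so that the spread grew to both sides of the vehicle values. The coefficient of variation was 1.39% and 11.5%, while counting error alone gives 7.77% at the vehicle depth. The agreement of the vehicle libraries is therefore closer than their reads can resolve. The log2 fold change was -0.08 ± 0.12 (SE), with an adjusted p = 0.801 in edgeR, with an interval from -0.33 to 0.17. It was -0.013 without corticosterone 7 and -0.14 without corticosterone 8. Per exon length there was 3.67 to 4.99 times as much *Hsd11b1* as *H6pd* in the vehicle libraries and 3.91 to 5.14 times in the corticosterone libraries, ranges that overlapped. With the longest transcript as the length, the mean ratios were 8.59 and 8.27.

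*Srd5a1* (ENSMUSG00000021594, chromosome 13 from 69573449 to 69611442) had 295, 209.6, 196 and 201 normalized counts after vehicle and 215, 235, 241 and 245 after corticosterone. Vehicle 1 was above all other libraries, and the other 3 vehicle libraries were below all 4 corticosterone libraries. The log2 fold change was 0.05 ± 0.13 (SE), with an adjusted p = 0.889 in edgeR, with an interval from -0.24 to 0.35. It was 0.21 without vehicle 1 (adjusted p = 0.668) and changed sign without vehicle 3 or vehicle 4, to -0.011 and -0.00054. Without any other library it was 0.02 to 0.09. The exons of *Srd5a1* share 476 bases with *Gm17108* on the same strand, which had 0 to 3 reads per library.

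*Cyp7b1* (ENSMUSG00000039519, chromosome 3 from 18071950 to 18243338) showed the same arrangement in vehicle 1. It had 479, 353, 363 and 368 normalized counts after vehicle and 351, 454, 419 and 451 after corticosterone. Corticosterone 5 lay with vehicle 2 to 4, and the other 3 corticosterone libraries lay between those and vehicle 1. The log2 fold change was 0.10 ± 0.12 (SE), with an adjusted p = 0.753 in edgeR, with an interval from -0.16 to 0.36. It was 0.21 without vehicle 1 and 0.18 without corticosterone 5, and 0.05 to 0.10 without any other library. With both left out, a setting chosen after seeing the data, it was 0.29 with an adjusted p value of 0.0686, the lowest of any of the 9 genes in the 16 settings fitted. In that setting 6.88% of all genes tested passed the threshold.

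Vehicle 1 also had the most oligodendrocyte RNA. All 4 markers of oligodendrocytes were fitted lower after corticosterone. These markers, myelin genes such as *Mbp* and *Mog*, summed to 2904 CPM in vehicle 1, to 1598 to 2289 in the other vehicle libraries and to 1506 to 2158 after corticosterone. The microglial markers summed to 367 to 379 CPM after vehicle and 290.2 to 365 after corticosterone, with 5 of 6 fitted lower, and the endothelial markers to 107 to 115 and 93.0 to 104, with 5 of 5 fitted lower. These sums did not overlap between the groups, nor did those of striatum, with 4 of 4 fitted higher. All 7 markers of leptomeningeal fibroblasts were fitted higher, with sums of 97.3 to 183 CPM and 144 to 261 that overlapped, and so were 4 of the 5 markers of choroid plexus that were tested, with a median log2 fold change of 1.04. The 5 astrocyte markers summed to 1343 to 1474 CPM after vehicle and 1303 to 1406 after corticosterone, and the 6 markers of GABAergic neurons to 916 to 1030.5 and 909 to 1013. Of the corticosterone libraries, corticosterone 5 had the highest sums of oligodendrocyte, microglial and GABAergic markers, 2158, 365 and 1013 CPM. The others had 1506 to 1615, 290 to 336 and 909 to 915. Its sum of hippocampal neuron markers was the lowest of the group, 698 CPM, and its astrocyte and endothelial sums lay within the range of the others. In edgeR 0 of the markers passed the threshold. The part of these cell types in the values of the receptor and enzyme genes was not tested.

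**Figure D4:**
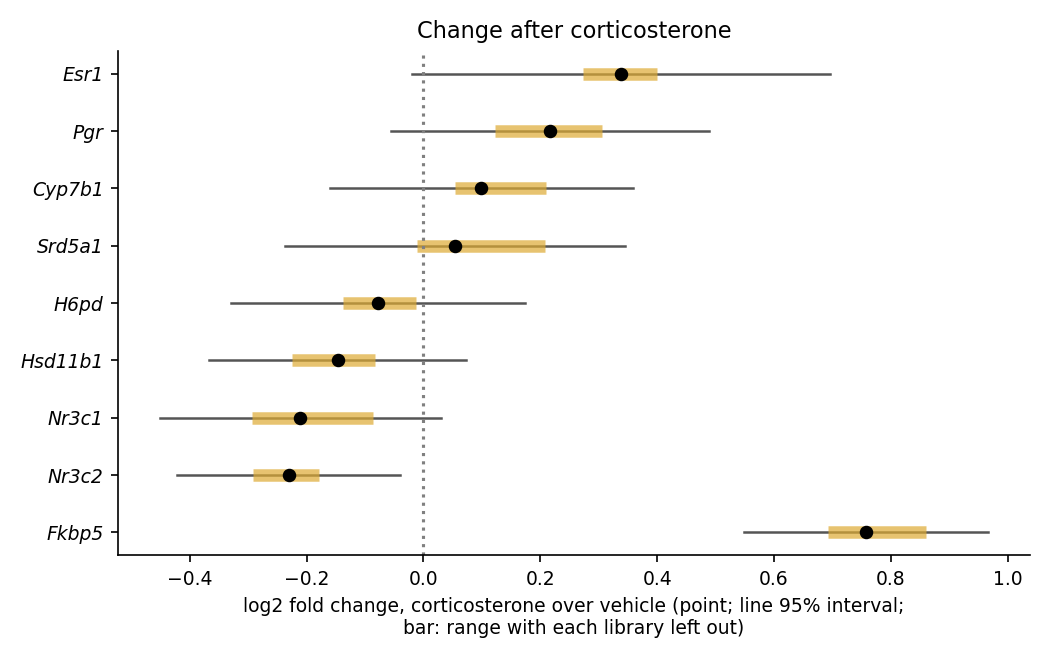
Log2 fold change of corticosterone over vehicle (points) for the 8 genes tested and for *Fkbp5*, with the 95% interval before adjustment (lines) and the range when each library is left out (yellow bars). The interval of *Nr3c2*, from -0.42 to -0.04, is the only one of the 8 that does not include 0, and *Fkbp5* lies apart at 0.76.

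The short element AGAACA, read as TGTTCT on the other strand, is the DNA sequence that GR, MR and the progesterone receptor recognise, usually as a pair in inverted order (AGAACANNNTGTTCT). RefSeq promoters of GRCm38.p6 were at hand for 7 of the 9 genes, with 8 start sites, and the 250 bases before each start were searched on both strands. The short element was in 1 of these 8 windows, that of *H6pd*, and in 16.1% of all 32851 windows. The full pair was in 0 of the 8 and in 0.00913% of all. No match says only that these letters are not in the window. Both windows printed lie inside the GENCODE gene, past its outermost start. The window of *H6pd* is at chr4:150003237-150003486 on the minus strand, and that of *Nr3c2*, the gene with the lowest p value of the 9 over all 8 libraries, at chr8:76902080-76902329 on the plus strand. They are shown 5′ to 3′ because they carry the match and the leading result. Capitals mark the short element in *H6pd* and, in *Nr3c2*, the GC boxes GGGCGG or CCGCCC, which 3 of the 8 windows and 32.7% of all windows hold.
H6pd: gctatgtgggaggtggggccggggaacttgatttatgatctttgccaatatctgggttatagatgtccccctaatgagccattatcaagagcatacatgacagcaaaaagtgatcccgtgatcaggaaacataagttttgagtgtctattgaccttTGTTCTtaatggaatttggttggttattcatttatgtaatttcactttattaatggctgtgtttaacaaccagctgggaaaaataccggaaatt
Nr3c2: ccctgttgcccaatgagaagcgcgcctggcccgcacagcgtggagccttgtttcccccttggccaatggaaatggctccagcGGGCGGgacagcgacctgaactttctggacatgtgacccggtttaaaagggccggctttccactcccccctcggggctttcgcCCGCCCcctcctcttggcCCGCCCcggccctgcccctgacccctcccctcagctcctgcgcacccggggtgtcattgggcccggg

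Other genes of steroid handling were taken from lists of 65 genes. Of these, 63 were matched in the table and 37 had enough reads to be tested. 0 of the 37 passed the threshold in edgeR, with 4 at an unadjusted p value under 0.05, 2 of them higher and 2 lower. This is 10.8% of the 37, against 9.03% of all genes tested. The median of their log2 fold changes was 0.015, with 21 genes fitted higher and 16 lower. By DESeq2, 1 of the genes passed the threshold, where 0.374% of all genes did. Without corticosterone 5, 4 passed it, against 10.2% of all genes. In 2 of the 37, *Sult1a1* and *Hsd17b4*, the groups did not overlap over all 8 libraries, where 3.66% of all genes tested had such groups. *Hsd17b4* had 1120 to 1197 normalized counts after vehicle and 1227 to 1260 after corticosterone, with an adjusted p = 0.546 in edgeR.

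The gene that passed with DESeq2 was *Sult1a1*, a phenol sulfotransferase that conjugates estrogens and catecholamines. It had 202, 177, 146 and 118 normalized counts after vehicle and 273, 357, 275 and 323 after corticosterone. The groups did not overlap (exact permutation p = 0.0286, two-sided, n = 4 and 4). The log2 fold change was 0.93 (standard error 0.16), with an adjusted p value of 0.174 in edgeR, 0.000134 with DESeq2, 0.0410 without vehicle 1 and 0.0108 without corticosterone 5. Without any other single library it was 0.215 to 0.554. Its exons share bases with *Sgf29* on the opposite strand.

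The membrane receptors and the orphan receptors of the lists were all measured. Of these 11 genes, 8 were fitted higher, as were 8127 of all 16018 genes tested. *Paqr7*, a membrane progestin receptor, had 1159, 1264, 1310.0 and 1279.7 normalized counts after vehicle and 1181, 931, 946 and 974 after corticosterone. Only corticosterone 5 lay within the vehicle range. The log2 fold change was -0.31 ± 0.086 (SE), with an adjusted p = 0.363 in edgeR, and -0.40 with an adjusted p value of 0.0108 without corticosterone 5. Without any other single library the adjusted p value was 0.287 to 0.894. *Esrra*, an estrogen-related receptor that drives mitochondrial genes and binds no estrogen, had a log2 fold change of -0.37 (adjusted p = 0.512), and -0.52 (adjusted p = 0.0178) without corticosterone 5. Without any other single library it was -0.43 to -0.26, with adjusted p values of 0.287 to 0.919. *Paqr6*, another membrane progestin receptor, was at -0.47 (adjusted p = 0.587), at -0.85 (adjusted p = 0.0358) without corticosterone 5, and at -0.64 to -0.28 without any other single library (adjusted p = 0.309 to 0.920). *Esrrg*, a relative of *Esrra*, was fitted 0.25 ± 0.10 (SE) higher on the log2 scale (adjusted p = 0.532), with 299 to 402 normalized counts after vehicle and 394 to 433 after corticosterone.

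Of the 14 genes of steroid synthesis, 6 had enough reads to be tested, and 8 were too low. Of the 6, 5 were fitted lower, as were 49.3% of all genes tested. The most abundant was *Por*, the reductase that passes electrons to many P450 enzymes, with 1646 ± 174 normalized counts (SD, n = 4) and 21.3 RPKM after vehicle. *Fdxr* and *Fdx1*, which pass electrons to the mitochondrial P450 enzymes, had 183 ± 29.2 and 137 ± 26.6 normalized counts after vehicle. *Cyp11a1*, which cleaves the side chain of cholesterol, reached 40.3 to 55.3 normalized counts after vehicle and 29.4 to 56.5 after corticosterone. *Star*, which brings cholesterol to that enzyme, reached 25.4 to 42.5 and 23.4 to 51.0. *Tspo* reached 24.7 to 55.0 and 20.6 to 41.9, with a log2 fold change of -0.51 (adjusted p = 0.550 in edgeR). *Cyp21a1* and *Cyp11b1*, the hydroxylases of the last steps to corticosterone, had 2 and 1 reads over all 8 libraries. *Cyp11b2*, the aldosterone synthase, had 0, *Cyp17a1*, which leads to androgens, had 3, and *Cyp19a1*, the aromatase, had 22. *Hsd11b2*, the enzyme that inactivates corticosterone opposite to *Hsd11b1*, had 1 read over all libraries, and *Srd5a2*, the other 5α-reductase, also 1. *Srd5a3* had 361 ± 30.9 normalized counts after vehicle and 394 ± 35.6 after corticosterone.

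In the supply of NADPH, 0 of 5 genes passed the threshold or had an unadjusted p value under 0.05 in edgeR, against 0.00624% and 9.03% of all genes tested. Of the 5, 4 were fitted lower, as were 49.3% of all genes tested. *Slc37a4*, which carries glucose-6-phosphate into the endoplasmic reticulum for *H6pd*, had 346.0 ± 46.7 normalized counts after vehicle (SD, n = 4) and 328 ± 60.3 after corticosterone (SD, n = 4). *Cyp46a1*, the neuronal cholesterol 24-hydroxylase, was the most abundant of the oxysterol genes, with 43.4 RPKM after vehicle and a log2 fold change of -0.03 (standard error 0.099).

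**Figure D5:**
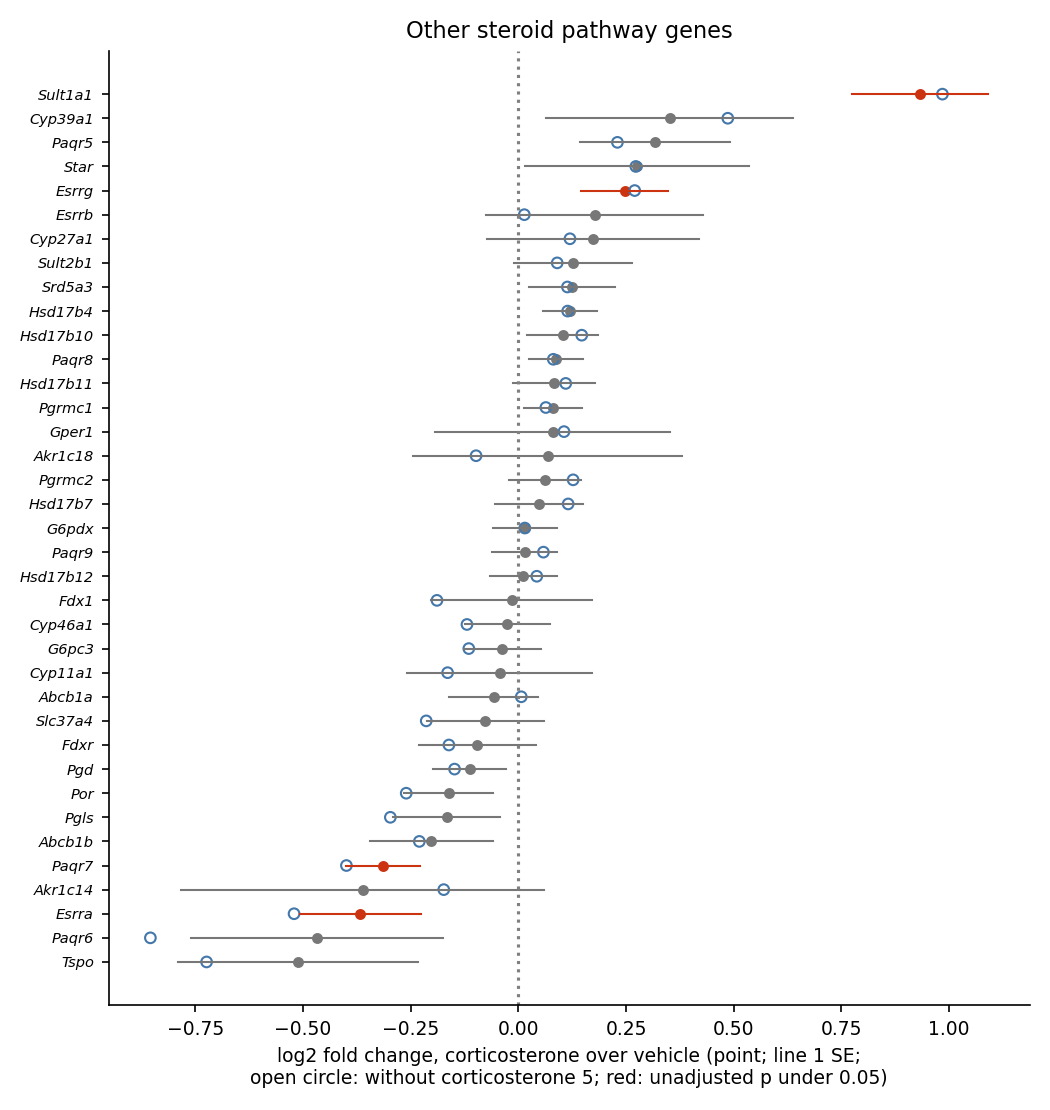
Log2 fold change of corticosterone over vehicle for the 37 other steroid pathway genes tested (points, with 1 standard error as lines, red where the unadjusted p value is under 0.05) and the value without corticosterone 5 (open circles). *Sult1a1* lies highest at 0.93, and *Paqr6* moves from -0.47 to -0.85 when that library is left out.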

How the data were processed

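Ventral hippocampus of 4 vehicle and 4 corticosterone mice was sequenced. The authors aligned the reads of stranded mRNA libraries with GSnap (mm10), ran HTSeq-count on genes, and deposited the raw counts without normalization. The annotation and the strand setting of the counting are not given in the sources used here, so genes with shared exons are uncertain. All 8 columns were matched to samples by name, and 0 were left out. The rows that name no gene were kept out of the library sizes. Reads on genes made up 84.6% to 86.3% of each library. Gene models came from GENCODE M21 (GRCm38), which held 50462 of the 50686 identifiers. RPKM used the union of exons.

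Counts were analysed with edgeR 4.0.16 (TMM, filterByExpr, quasi-likelihood test, Benjamini-Hochberg over all genes tested) under R 4.3.3. Exact permutation tests used log2 CPM with a prior count of 2 over the 70 assignments of 4 against 4. The study itself used DESeq2. Alternatives were DESeq2 1.42.0, limma-voom (limma 3.58.1), RLE and upper-quartile normalization, no filter, at least 10 counts in every library, each library left out, a prior count of 0.5 and the longest transcript as length. On simulated data, edgeR (15840 genes) recovered 79% of the genes with a log2 change of 1 and 48% at 0.5, with 7.30% of its calls false. DESeq2 (16018 genes) recovered 81% and 58% with 15.2% false, and limma-voom (15840 genes) 77% and 45% with 4.69% false. These shares hold for the simulated counts only. They do not say how often a change of that size would be found in the real libraries. There, edgeR called 1 gene with all libraries and 1651 without corticosterone 5. *Sult1a1*, with a log2 fold change of 0.93 over all libraries, had an adjusted p value of 0.174 in edgeR.

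The 9 genes, chosen by function, and the lists were set with earlier results of these data known. The named genes were all 9 genes, the pathway genes with an unadjusted p value under 0.05 (up to 3 in each direction), the 3 genes most like *Nr3c1* and *Nr3c2*, and *Fkbp5*. *Paqr6* and other pathway genes given by their level were named after their values were seen. Of the planned oligodendrocyte markers, 1 was left out.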

Additional observations from a re-analysis of the deposited data

Results flagged for a closer look

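In 32 sets of 4 values (the 9 genes, 4 pathway genes and 3 ratios, by group), 4 held a library that lay far outside the rest. Chance alone would give about 1.6 if the sets were independent. The ratios reuse values of the 9 genes, so setting these numbers side by side cannot show an excess. *Srd5a1* had 295 normalized counts in vehicle 1, against 196 to 209.6 in the other vehicle libraries. *Cyp7b1* had 479 in vehicle 1, against 353 to 368. *Paqr7* had 1181 in corticosterone 5, against 931 to 974 in the other corticosterone libraries. The ratio of *Hsd11b1* to *H6pd* was 5.14 in corticosterone 7, against 3.91 to 3.99, in the corticosterone library with the lowest count of *H6pd* and the highest of *Hsd11b1*.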

How the results depend on the processing

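No paired analysis was possible because no replicate number occurs in both groups. The number of receptor and enzyme genes past the threshold was 0 in all 16 settings, and their directions held in all of them except that of *Srd5a1*, which was -0.011 without vehicle 3 and -0.00054 without vehicle 4, and which ranged up to 0.21 with 1 library left out. The number of all genes past the threshold was 1. It was 63 with DESeq2, 79 with no filter, 0 with at least 10 counts in every library, 0 to 1651 with 1 library left out (19 without vehicle 1, 1651 without corticosterone 5) and 1103 without both (added once the data had been seen). The number of pathway genes past it was 0. It was 1 with DESeq2 and with no filter, *Sult1a1* each time, 0 to 4 with 1 library left out and 4 without both. The ratios of *Nr3c2* to *Nr3c1* stayed between 2.86 and 3.48 after vehicle and between 2.93 and 3.12 after corticosterone with 1 library left out. The cause of these shifts was not tested. Depth limits *Esr1* and *Esr2*. The p values measure the spread between mice of 1 experiment, with no batch named.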
